A study of Mus musculus with 39 samples.

Results

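Beta-defensin genes were followed as a family through libraries of epididymal fat. Gene identifiers in the count files were matched to symbols, and every protein-coding gene whose symbol begins with Defb was taken, which gave 42 of the 45232 genes counted. Of these, 2 lie on chromosome 1, 11 on chromosome 2, 5 on chromosome 14 and 24 on chromosome 8. The pseudogene Defb44-ps, with 4 reads in all epididymal fat libraries, was left out.

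Poly-A RNA of male C57BL/6J mice aged 22 weeks was read on an Ion Torrent Proton sequencer, in 19 libraries of epididymal white adipose tissue (eWAT) and 20 of quadriceps muscle. From week 6 to week 7 the juvenile mice ate either a control diet with 10% of its calories as fat (CD) or a high-fat diet with 45% (HFD), followed by chow to week 10. Both groups then ate a common HFD to week 22, and part of each was fasted for 16 h before death. The eWAT libraries number 4 (CD fed), 6 (CD fasted), 4 (HFD fed) and 5 (HFD fasted), and the quadriceps libraries 4, 6, 4 and 6 in that order. Replicate numbers follow accession order and only name a library. Whether every library stems from its own animal is not stated in the labels, so p-values rest on a spread between samples that may be technical.

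Beta-defensins are small secreted cationic peptides whose folded core is held together by disulphide bonds between conserved cysteines. They are best known as antimicrobial peptides of skin and mucosal surfaces, but many members of the mouse family are made by the epithelium of the epididymis, the duct in which sperm mature, and several bind to the sperm surface. The epididymal duct is divided along its length into the initial segment, caput, corpus and cauda, and its genes are switched on in different stretches. Gpx5, a secreted glutathione peroxidase of the epididymal epithelium, served to divide the eWAT libraries.

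Levels are in CPM, reads scaled to a common library total. With Gpx5 above 1000 CPM 13 eWAT libraries were taken as epididymal, and 6 lay below 100 CPM. Gpx5 ranged from 1687 to 29108 CPM in the 13, from 1.89 to 16.6 CPM in the 6, and reached 0.322 CPM in quadriceps. The 13 were CD fed 1, 2, 3 and 4, CD fasted 4, 5 and 6, HFD fed 1 and 4, and HFD fasted 1, 2, 3 and 5. Because the division comes from a measured transcript, the difference between the 13 and the 6 is given as a description with no test. Between 6199586 and 14596745 reads were counted per eWAT library, and up to 14993394 in quadriceps. Summed adipocyte markers (10 genes) were lower in the 13, at 1529 to 18428 CPM, than the 6924 to 54318 CPM of the 6, with overlap. Summed spermatid markers (10 genes) stood at 13809 CPM in HFD fasted 1 and 3008 CPM in CD fed 1, and no more than 459 CPM in the other 11 of the 13. Summed hepatocyte markers (10 genes) stood at 2304 to 136577 CPM in the 6, highest in HFD fasted 4 and next in CD fasted 1 (34337 CPM). Among the 13 they stood at 3146 CPM in CD fed 1 and 2480 CPM in HFD fed 4, and at 101 to 793 CPM in the other 11. In bulk tissue, fewer cells of a type and less RNA per cell cannot be told apart.

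The family shares a core with a fixed order of 6 cysteines, and the spacing of those cysteines sets members apart. A search of the GENCODE M21 coding sequences found this core in 38 of the 42 members, in each case inside 1 exon. Defb46, Defb8, Defb33 and Defb50 did not match the pattern. The coding sequence of the core is given for 6 members on which the results turn, with the cysteine codons in capitals, 5′ to 3′ on the coding strand.
Defb25: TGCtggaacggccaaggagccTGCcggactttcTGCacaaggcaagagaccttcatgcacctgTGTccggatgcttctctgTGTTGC
Defb48: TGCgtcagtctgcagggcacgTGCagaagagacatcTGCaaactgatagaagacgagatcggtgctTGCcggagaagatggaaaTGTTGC
Defb20: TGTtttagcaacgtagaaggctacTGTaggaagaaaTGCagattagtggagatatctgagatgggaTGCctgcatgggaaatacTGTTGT
Defb22: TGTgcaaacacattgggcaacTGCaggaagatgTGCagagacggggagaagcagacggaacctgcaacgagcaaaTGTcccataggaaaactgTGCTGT
Defb26: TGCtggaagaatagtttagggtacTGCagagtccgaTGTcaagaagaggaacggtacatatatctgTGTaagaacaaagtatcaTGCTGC
Defb42: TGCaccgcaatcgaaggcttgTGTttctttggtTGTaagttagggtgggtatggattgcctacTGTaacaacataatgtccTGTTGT
Residues between successive cysteines number 6, 3, 9 and 5 in Defb25 and in Defb42, before the adjacent pair that closes the core. Defb48 has 6, 4, 9 and 5, Defb20 and Defb26 have 7, 3, 9 and 5, and Defb22 has 6, 3, 13 and 5, with the widest gap of these 6 members. Predicted precursors of the 42 members run from 57 to 186 residues, and Defb26 (186), Defb22 (179) and Defb23 (166) are the 3 longest. The Defb25 core lies at chr2:152622458-152622544 and the Defb48 core at chr14:62977746-62977835 (GRCm38, minus strand for both).

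Beta-defensin reads made up a visible part of the 13 epididymal libraries. Summed over the 42 members, the level was 4068 to 12844 CPM with a median of 10232 CPM in the 13 libraries, 2.53 to 13.1 CPM with a median of 5.43 CPM in the 6, and at most 0.965 CPM in quadriceps. In reads, the family held 1065708 of 108832471 in the 13 libraries, 452 of 66818965 in the 6 and 50 of 205005512 in quadriceps. No sum of the 13 libraries overlapped those of the 6 or of quadriceps.

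Of the 42 members, 39 had at least 1 read in eWAT and 34 reached 1 CPM in at least 1 eWAT library. No read of Defb8, Defb7 or Defb46 was found in eWAT, where 3 reads over all libraries would be 0.0171 CPM; such floors cover counting error only, as reads carried no molecular identifiers. At or above 10 CPM in at least 1 eWAT library were 27 members, which are described individually. These are both members on chromosome 1, all 11 on chromosome 2, all 5 on chromosome 14, and 9 of the 24 on chromosome 8. Just inside this limit stood Defb36 (highest value 15.3 CPM) and Defb11 (16.3 CPM), and just outside stood Defb40 (9.90 CPM) and Defb33 (7.58 CPM).

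In 26 of the 34 members that reached 1 CPM, every one of the 13 libraries lay above every one of the 6. Over all genes that reached 1 CPM in an eWAT library the share was 10.8% (2207 of 20517), and the division by Gpx5 fixes part of it. The 34 members all reached 1 CPM in the 13 libraries, while other genes could pass through either set. The count of 26 therefore describes the members and is no further support. The 8 members with overlap were Defb22, Defb26, Defb25, Defb19, Defb40, Defb14, Defb9 and Defb33. Defb25 overlapped through a single library, CD fed 1, which held 1.48 CPM against a highest value of 1.60 CPM among the 6. Defb22 and Defb26 overlapped through HFD fed 4, with 0 reads of Defb22 and 0.616 CPM of Defb26. The count was 27 without CD fed 1 and 30 without HFD fed 4. Defb38 cleared the 6 libraries only narrowly, at 0.411 CPM in HFD fed 4 against 0.410 CPM in HFD fed 3.

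**Figure D1:**
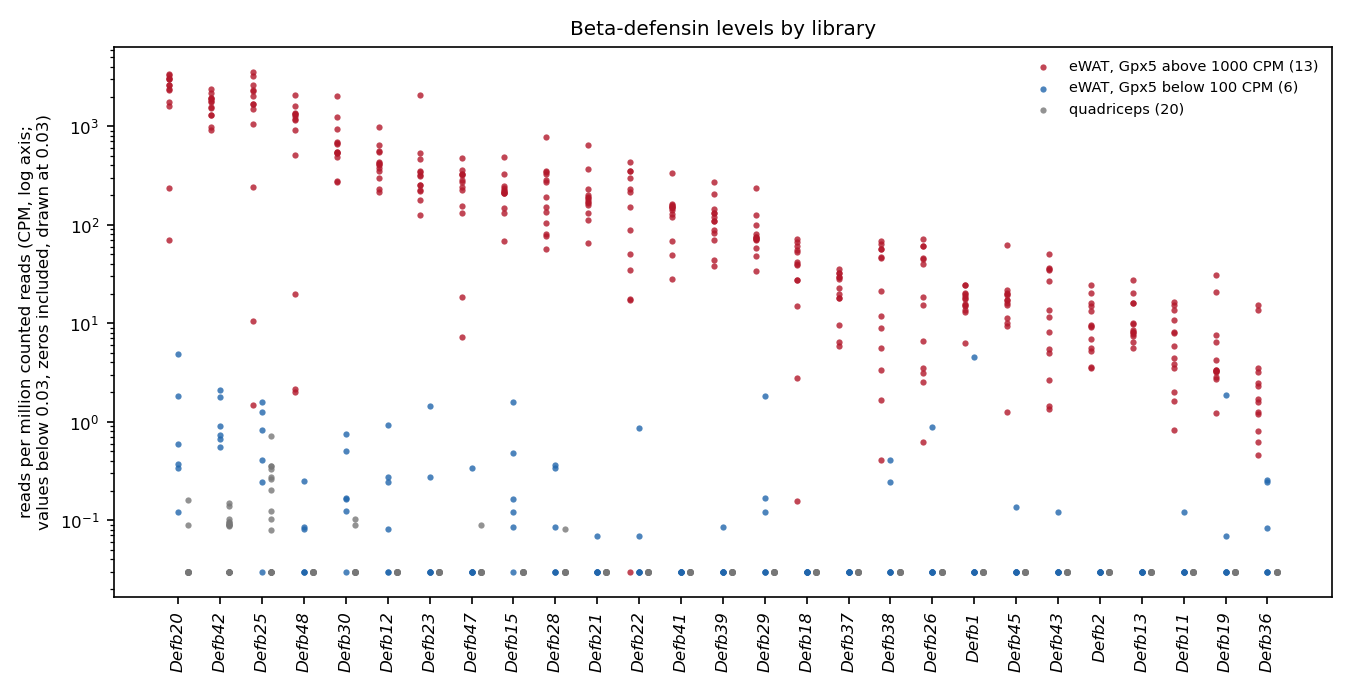
CPM (log axis) of the 27 members that reached 10 CPM, each point a library: 13 eWAT libraries with Gpx5 above 1000 CPM, 6 with Gpx5 below 100 CPM and 20 quadriceps libraries. Most members lie above the blue and grey points in all 13 libraries, while Defb25, Defb22, Defb26 and Defb19 each have at least 1 library that falls among them.

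A few genes carried most of the family's reads. Defb20 ranged from 69.8 to 3356 CPM in the 13 libraries with a median of 2614 CPM, against 0.122 to 4.89 CPM in the 6. It held the most reads of any member in 9 of the 13 libraries. Defb42, an epididymal defensin of the chromosome 14 cluster, ranged only from 914 to 2398 CPM with a median of 1740 CPM. Its lowest epididymal library was thus far above the 2.09 CPM reached in the 6. Defb25 ranged from 1.48 to 3550 CPM with a median of 1687 CPM. Defb48 ranged from 2.02 to 2053 CPM with a median of 1195 CPM, and its highest value among the 6 was 0.253 CPM. Together Defb20, Defb42, Defb25 and Defb48 made up 19.9% to 82.8% of a library's beta-defensin reads, with a median of 71.3%.

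The next 8 members by median were less abundant, most of them with a narrower range. Defb30, which lies across the Defb42 locus on the opposite strand without sharing exonic bases, ranged from 274 to 2032 CPM with a median of 552 CPM. Defb12 ranged from 217 to 971 CPM with a median of 417 CPM. Defb23, a long member of the chromosome 2 cluster, ranged from 124 to 2062 CPM with a median of 313 CPM. The 3 lay above the 6 Gpx5-low libraries throughout, where the highest values were 0.754, 0.927 and 1.43 CPM. Defb47 ranged from 7.31 to 477 CPM with a median of 269 CPM. Defb15, whose rat counterpart has been tied to sperm motility, ranged from 68.5 to 484 CPM with a median of 215 CPM. In Defb15, 58.0% of exonic bases overlap Gm36879 on the other strand, so without a stated strand setting its reads cannot be fully assigned. Defb28 ranged from 56.4 to 785 CPM (median 191 CPM), and Defb21 from 65.5 to 649 CPM (median 179 CPM). Defb22, the mouse counterpart of a primate defensin of the sperm surface coat, ranged from 0 to 432 CPM with a median of 151 CPM. Of these 12 members, Defb22 and Defb25 were the ones whose epididymal and Gpx5-low values overlapped.

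Among the remaining 15 named members, medians in the 13 libraries ran from 147 CPM (Defb41), 110 CPM (Defb39), 72.9 CPM (Defb29) and 39.6 CPM (Defb18) down to 3.32 CPM (Defb19) and 1.70 CPM (Defb36). Between them came Defb37 (22.8 CPM), Defb38 (21.2 CPM), Defb26 (18.4 CPM), Defb1 (17.5 CPM), Defb45 (17.2 CPM) and Defb43 (11.6 CPM). Defb2 (9.40 CPM), Defb13 (8.61 CPM) and Defb11 (5.86 CPM) completed the set. Defb41 is known as a gene of principal cells in the initial segment, and Defb1 as a constitutive defensin of kidney and airway. Defb2 and Defb11 share about 20.7% and 19.8% of their 50-base stretches with neighbouring members, so their separate levels are uncertain.

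Per exonic length (RPKM, the CPM divided by the annotated exon length in kilobases) the order changed. Defb25 had the highest median RPKM of the 13 libraries at 5757, followed by Defb20 at 3788 and Defb48 at 2686. Defb47 at 749, Defb42 at 717, Defb15 at 623 and Defb23 at 501 came next. Adjacent members in this order had overlapping ranges over the 13 libraries. The annotated exons of Defb42 span 2425 bases over 5 transcripts against 293 bases for Defb25, and its RPKM depends on which of them are counted. Per length, Defb25 led in 9 of the 13 libraries, Defb28 in CD fed 1 (833 RPKM), Defb20 in CD fasted 6 (2560 RPKM), Defb48 in HFD fasted 2 (4613 RPKM) and Defb23 in HFD fasted 3 (3304 RPKM).

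Outside the 13 libraries the members were at or near 0. In the 6 Gpx5-low libraries 24 members had at least 1 read, and the largest single value was 4.89 CPM of Defb20 in CD fasted 3. Defb1 reached 4.56 CPM, Defb19 1.85 CPM and Defb14 1.11 CPM in HFD fasted 4, the library with 136577 CPM of hepatocyte markers, and Defb1 had no read in the other 5. Summed spermatid markers were also highest in HFD fasted 4 among the 6, at 234 CPM against 45.8 to 85.2 CPM in the other 5. What the hepatocyte or spermatid transcripts contribute to these values was not tested. In quadriceps 7 members had reads, 32 of Defb25 in 10 of 20 libraries, 10 of Defb42 and no more than 3 of any other. The remaining 35 had none, where 3 reads over the 20 libraries would be 0.0146 CPM.

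The labelled tissues were then compared across all 39 libraries. Of the 32 members that passed the low-count filter, 32 had higher counts in eWAT than in quadriceps at an adjusted p under 0.05 (edgeR quasi-likelihood test), where 54.9% of the 17083 genes tested were higher. The members passed the filter through eWAT libraries, so this count describes them and is no further support. Adjusted p lay between 5.66e-10 and 4.73e-04. Fitted fold changes against libraries with no reads depend on the prior count and are not given.

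The chromosome 8 cluster was the least used. Its 24 members included all 3 without a read and all 15 that stayed under 10 CPM. Defb35 (highest 5.43 CPM), Defb40 (9.90 CPM), Defb10 (6.98 CPM), Defb9 (3.57 CPM), Defb14 (3.72 CPM), Defb34 (1.01 CPM) and Defb33 (7.58 CPM) reached 1 CPM but not 10. Defb6, Defb4, Defb3, Defb5 and Defb50 stayed under 1 CPM in every eWAT library. Defb4 and Defb14 are known as inducible defensins of airway and skin, and keratinocyte markers (5 genes) summed to no more than 3.59 CPM in the 13 libraries. The stretch from Defb1 to Defb13 on this chromosome, whose deletion in mice has been reported to impair sperm function, held Defb1, Defb2, Defb11, Defb15 and Defb13 among the named members, with Defb15 the most abundant in CPM and in RPKM.

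**Figure D2:**
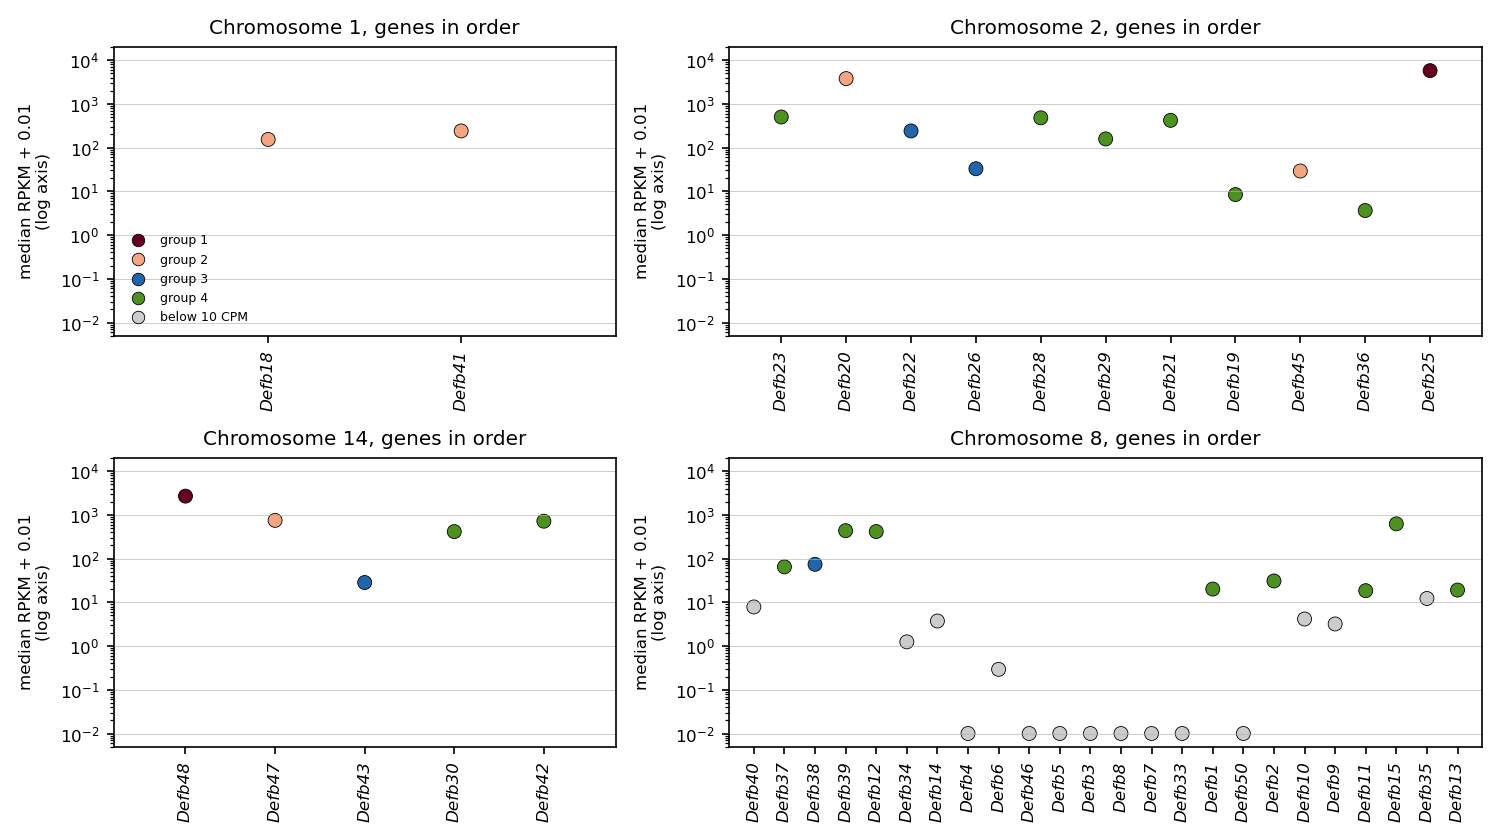
Median RPKM plus 0.01 (log axis) over the 13 eWAT libraries with Gpx5 above 1000 CPM for all 42 members, in their order along 4 chromosomes. Colours mark the 4 groups of members that varied together, and grey marks members under 10 CPM in every eWAT library, all of which lie on chromosome 8.

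Within the 13 epididymal libraries the members did not vary as one. Hierarchical clustering of log2(CPM + 0.5), centred per gene, placed the 27 named members in 4 groups, which were the same with average, complete and Ward linkage. The groups were chosen after the values were seen and carry no test. Group 1 held Defb25 and Defb48, and group 2 held Defb20, Defb47, Defb41, Defb18 and Defb45. In group 3 were Defb22, Defb38, Defb26 and Defb43, and the other 16 members formed group 4. The groups spanned the gene clusters: chromosome 14 had members in all 4, and so did chromosome 2.

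**Figure D3:**
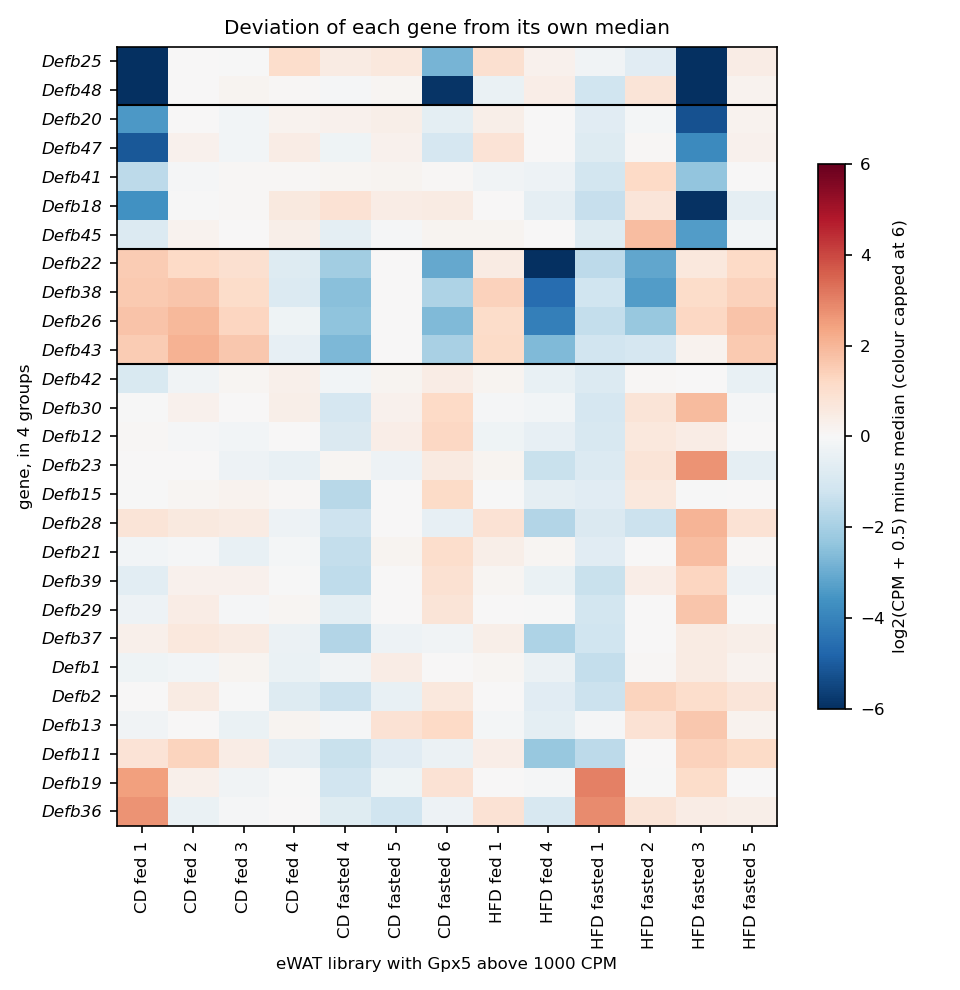
Deviation of each of the 27 named members (rows, in groups 1 to 4 from top to bottom) from its own median of log2(CPM + 0.5) in the 13 eWAT libraries with Gpx5 above 1000 CPM (columns), with blue below and red above the median. Groups 1 and 2 are low in CD fed 1 and HFD fasted 3, and group 3 is low in HFD fed 4.

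Group 1 was low in 3 libraries. Defb25 held 1.48 CPM in CD fed 1, 10.5 CPM in HFD fasted 3 and 241 CPM in CD fasted 6, against 1042 to 3550 CPM in the other 10 libraries. Defb48 held 2.13, 2.02 and 19.6 CPM in the same 3 libraries, against 513 to 2053 CPM in the other 10. The 3 libraries come from 3 different label groups, and for both genes they lie below the range of the remaining 10. The ratio of highest to lowest library was 2398 for Defb25 and 1019 for Defb48.

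The same 3 libraries were low in some transcripts of the initial segment and caput, but not in all epididymal transcripts. Lcn8, a lipocalin of the initial segment, was at 1.67 CPM in CD fed 1, 8.53 CPM in HFD fasted 3 and 94.9 CPM in CD fasted 6, against 2675 to 6746 CPM in the other 10. Adam28 was at 0.185, 0.310 and 28.2 CPM, against 439 to 1909 CPM. Etv4, a transcription factor of the initial segment, was at 0.740, 1.55 and 2.92 CPM, against 36.8 to 106 CPM. Lcn5, from the list of epididymal principal cells, was at 3364, 10783 and 8321 CPM, against 1350 to 5919 CPM. Adam7, from the same list, was at 2564, 3557 and 5282 CPM, against 2045 to 6252 CPM. Of the 10 genes on the proximal list, Ros1 (89.5, 137 and 154 CPM, with 72.6 to 250 CPM over all 13) and Rnase9 (1713, 7380 and 3422 CPM) were not low there. The list summed to 1847 to 21093 CPM in the 13 libraries and to no more than 22.5 CPM in the 6. Which stretch of duct each library took in is not given in the labels, and its part in the defensin levels was not tested. Nor was that of the hepatocyte markers, at 3146 CPM in CD fed 1, 508 CPM in HFD fasted 3 and 207 CPM in CD fasted 6.

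Group 2 followed in part. Defb20 was at 238 CPM in CD fed 1 and 69.8 CPM in HFD fasted 3, against 1606 to 3356 CPM in the 10 libraries with abundant Lcn8. In CD fasted 6 it held 1766 CPM, inside that range, where Defb25 and Defb48 were low. Defb18 held 2.78 and 0.155 CPM in CD fed 1 and HFD fasted 3, against 55.8 CPM in CD fasted 6. Defb41 held 49.1 and 28.4 CPM in those 2 and 156 CPM in CD fasted 6. Both genes lay inside their range of the 10 libraries in CD fasted 6 (15.0 to 71.6 CPM for Defb18, 67.7 to 335 CPM for Defb41). Defb47 held 7.31 and 18.4 CPM, and its 132 CPM in CD fasted 6 lay below the 155 to 477 CPM of the 10. Spag11b, a defensin-like secreted protein of the epididymis, was at 809 CPM in CD fed 1, 89.8 CPM in HFD fasted 3 and 3763 CPM in CD fasted 6, with 1524 to 5645 CPM in the other 10.

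Group 3 varied in other libraries. Defb22 had 0 reads in HFD fed 4, where 3 reads would be 0.308 CPM, and held 17.2 CPM in HFD fasted 2, 17.4 CPM in CD fasted 6, 35.0 CPM in CD fasted 4 and 50.8 CPM in HFD fasted 1. It held 87.6 CPM in CD fed 4, 151 CPM in CD fasted 5 and 215 to 432 CPM in the other 6 libraries. Its highest value was at least 1402-fold higher, with the floor of 3 reads taken for HFD fed 4. Defb38 (0.411 CPM in HFD fed 4, 68.9 CPM in CD fed 2), Defb26 (0.616 and 71.3 CPM) and Defb43 (1.44 and 50.5 CPM) were low and high in the same 2 libraries, though Defb43 was marginally lower in CD fasted 4 (1.35 CPM). Of the 4 genes on the distal list, Crisp1, a sperm-binding secreted protein, was lowest in HFD fed 4 (275 CPM), and so was Cd52, a sperm-surface glycoprotein (146 CPM). Ces5a (491 CPM in HFD fed 4) was lowest in CD fasted 4 (267 CPM), and Eddm3b (158 CPM in HFD fed 4) in HFD fasted 1 (105 CPM). In CD fasted 5, Crisp1 was at 1719 CPM with Defb22 at 151 CPM, and in HFD fed 1 at 1335 CPM with Defb22 at 215 CPM. The distal list summed to 1069 CPM in HFD fed 4, 988 CPM in HFD fasted 1 and up to 6573 CPM in HFD fasted 3, and its part in the group 3 levels was not tested. Hepatocyte markers summed to 2480 CPM in HFD fed 4, and their part was not tested either. Ltf, the iron-binding lactoferrin from the antimicrobial list, was at 0.616 CPM in HFD fed 4 against up to 84.9 CPM.

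Group 4 held the members with the narrowest ranges. The ratio of highest to lowest library was 2.62 for Defb42, 3.89 for Defb1, 4.47 for Defb12, 4.83 for Defb13 and at most 33.5 for any of the 16. Defb41 of group 2, with a ratio of 11.8, lay inside this span, so the groups overlapped in spread. HFD fasted 3, with the lowest Gpx5 of the 13 at 1687 CPM, held the highest Defb30 (2032 CPM), Defb23 (2062 CPM), Defb28 (785 CPM), Defb21 (649 CPM), Defb39 (272 CPM) and Defb29 (233 CPM). Those 6 members were not low with Gpx5 there, and the family total per 1000 Gpx5 reads was 5438 in that library against 381 to 922 in the other 12. CD fasted 6 came next for Defb30 (1248 CPM) and held the highest Defb12 (971 CPM), Defb15 (484 CPM) and Defb42 (2398 CPM).

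Defb19 and Defb36 stood out in group 4 for 2 libraries. Defb19 held 30.6 CPM in HFD fasted 1 and 20.7 CPM in CD fed 1, against 1.21 to 7.60 CPM in the other 11. Defb36 held 15.3 and 13.7 CPM in the same libraries, against 0.457 to 3.47 CPM. Defb33, under the 10 CPM limit, was at 7.58 and 1.76 CPM there and at 0.457 CPM or less in the other 11. These are the libraries with 13809 and 3008 CPM of spermatid markers, and Prm2, a sperm protamine, was at 4345 and 773 CPM in them against 48.3 to 173 CPM in the other 11. The spermatid transcripts' part in these levels was not tested.

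**Figure D4:**
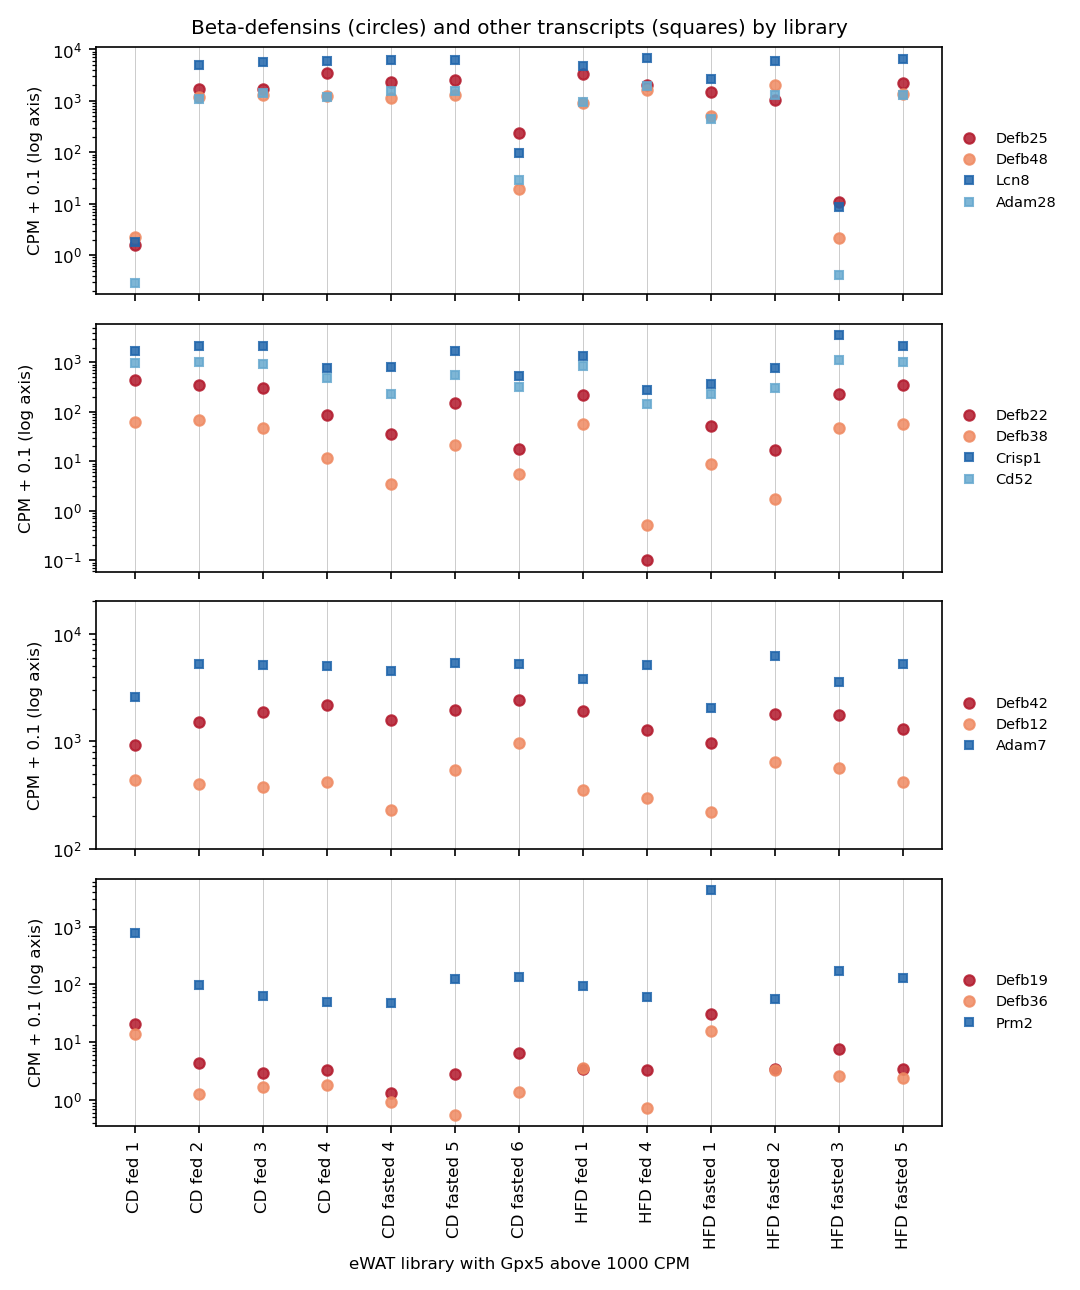
CPM plus 0.1 (log axis) in the 13 eWAT libraries with Gpx5 above 1000 CPM for 8 beta-defensins (circles) with Lcn8, Adam28, Crisp1, Cd52, Adam7 and Prm2 (squares). Defb25 and Defb48 are low where Lcn8 and Adam28 are low, Defb22 and Defb38 are lowest with Crisp1 and Cd52 in HFD fed 4, and Defb19 and Defb36 are highest in the 2 libraries with the most Prm2.

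Whether fasting or juvenile diet altered the family in adult mice was asked among the 13 epididymal libraries, which number 4 (CD fed), 3 (CD fasted), 2 (HFD fed) and 4 (HFD fasted). No member passed the threshold for fasting, where 0% of 17330 genes passed and 33 members were tested (edgeR quasi-likelihood test, adjusted p under 0.05). At an unadjusted p under 0.05 there were 1133 genes and 1 member, or 4 members without HFD fed 1. DESeq2 called 215 genes and limma voom 68, with 0 members in either. Among the 33 members the fitted change was positive for 17 and negative for 16, with a median log2 change of 0.01 against 0.09 over all genes.

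The member with an unadjusted p under 0.05 was Defb13, from the chromosome 8 stretch named above. After juvenile CD its level was 6.41 to 9.72 CPM in fed and 8.21 to 20.2 CPM in fasted libraries, with overlap. After juvenile HFD it was 5.65 and 7.85 CPM in the 2 fed libraries and 8.23 to 27.3 CPM in fasted libraries, without overlap. The log2 change of fasted against fed was 0.96 ± 0.30 (SE), with an adjusted p of 0.438 in edgeR. The smallest adjusted p of any member under any alternative was 0.0719, for Defb13 in limma voom.

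Precision differed widely among members. Defb42 was measured most tightly, at 914 to 2153 CPM in CD fed, 1574 to 2398 CPM in CD fasted, 1284 and 1919 CPM in HFD fed and 971 to 1806 CPM in HFD fasted libraries. Its log2 change with fasting was -0.00 ± 0.24 (SE). Defb25 spanned 1.48 to 3550 CPM within CD fed alone, and its log2 change with fasting was -0.59 ± 1.23 (SE). The group 3 members Defb43, Defb38 and Defb26 had log2 changes of -1.28 ± 0.80, -1.14 ± 0.99 and -1.06 ± 0.93 (SE), none past the threshold. Members had a median SE of 0.65 on the log2 scale, from 0.24 to 2.36, against 0.30 over all genes. The widest was that of Defb33, which had reads in 4 of the 13 libraries.

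Juvenile diet gave no call either, with 0% of 17330 genes and 0 of 33 members past the threshold in edgeR. At an unadjusted p under 0.05 there were 209 genes and 0 members, or 3 members without HFD fed 1. DESeq2 called 1 gene and limma voom 0, and neither called a member. The fitted change was higher after juvenile HFD for 25 members and lower for 8, with a median log2 change of 0.18 against 0.04 over all genes. Members varied together in groups, so these directions are not independent of each other and carry no test. The log2 change was -0.17 ± 0.24 for Defb42 and 0.95 ± 0.79 (SE) for Defb36, neither past the threshold. For Defb36 the value was 0.11 without HFD fed 1 and 2.06 without the 3 libraries low in Lcn8.

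The difference between the fasting response after juvenile HFD and that after juvenile CD was tested as an interaction, with 2 to 4 libraries per group. It was past the threshold for 0% of 17330 genes and for 0 of 33 members in edgeR, with 1207 genes and 1 member at an unadjusted p under 0.05 and 0 calls by DESeq2 and limma voom. The count of members at an unadjusted p under 0.05 was 3 in DESeq2, 6 in limma voom and 10 without HFD fed 1 (495 of 18952 genes), which leaves 1 library in its group. In edgeR with all 13 libraries that member was Defb36, at 0.457 to 1.25 CPM in CD fasted, 1.19 to 13.7 CPM in CD fed, 0.616 and 3.47 CPM in HFD fed and 2.28 to 15.3 CPM in HFD fasted libraries. The log2 difference was 3.95 ± 1.72 (SE) with an adjusted p of 0.553. It was 0.40 without the libraries with over 1000 CPM of hepatocyte or spermatid markers, which include the 2 with the highest Defb36. They also include HFD fed 4, so HFD fed 1 was then the only library of its group.

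In all 19 eWAT libraries, as the labels group them, 32 members were tested and 0 passed for fasting or for juvenile diet, as did 0% of 16603 genes in each case (edgeR). At an unadjusted p under 0.05 there were 1448 genes for fasting and 282 for diet, with 0 members in either, and DESeq2 called 91 genes and 1 gene and limma voom 0 in each, again with 0 members. The 6 Gpx5-low libraries are 3 CD fasted, 2 HFD fed and 1 HFD fasted, so the label groups hold different numbers of epididymal libraries. Median SE of the members was 1.24 here against 0.65 within the 13 libraries.

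**Figure D5:**
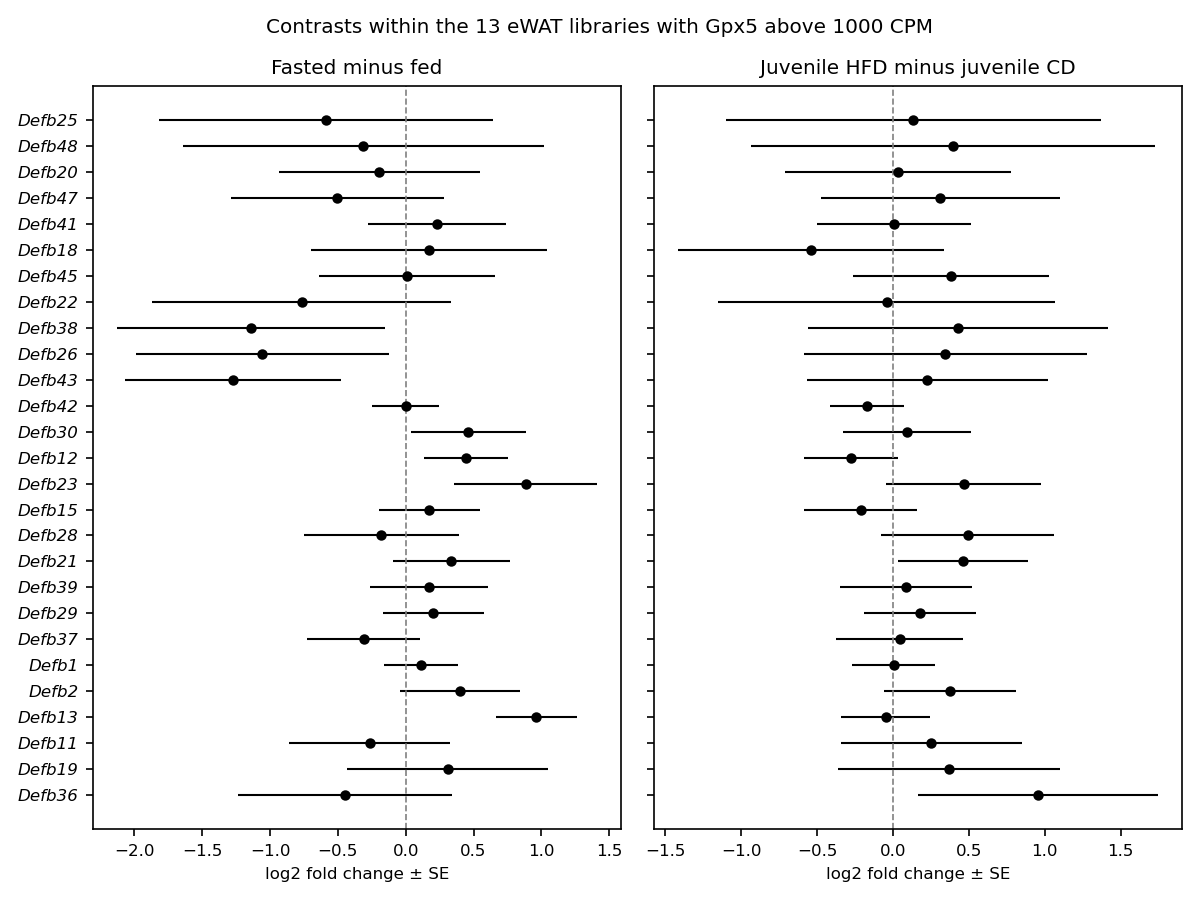
Log2 fold change (edgeR), with an SE derived from the change and its F statistic, of the 27 named members within the 13 eWAT libraries with Gpx5 above 1000 CPM, for fasted against fed and for juvenile HFD against juvenile CD. None passed an adjusted p of 0.05, and the bars are widest for Defb25 and Defb48 and narrow for Defb42 and Defb1.

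Other antimicrobial and defensin-related genes were read beside the family. Of a list of 22 such genes, 16 were tested across tissues. Of these, 13 were higher in eWAT than quadriceps and 0 lower, where 54.9% of all genes tested were higher (edgeR, adjusted p under 0.05). List genes such as Spag11a, Eppin, Bpi and Ltf had no read in quadriceps. They passed the filter through eWAT libraries, so this count describes the list and is no further support. Lyz1, S100a8 and S100a9 did not pass. Lcn2, a siderophore-binding lipocalin, ranged from 313 to 3697 CPM in the 13 libraries and Spag11a from 109 to 495 CPM. Eppin, a protease inhibitor of the sperm surface, ranged from 55.0 to 152 CPM and Bpi, which binds endotoxin, from 2.64 to 208 CPM. Each of these except Lcn2 stayed under 2 CPM in the 6 Gpx5-low libraries, where Lcn2 reached 95.4 CPM. Other list genes reached their highest values in the 6. Lyz2 reached 579 CPM there against 162 CPM in the 13, Lyz1 95.2 against 11.6 CPM and S100a9 42.8 against 0.465 CPM. Receptors reported for beta-defensins were scarce in the 13 libraries: Tlr2 reached 8.61 CPM, Tlr4 4.58 CPM, Ccr2 4.44 CPM, Ccr6 1.13 CPM, Mc4r 0.891 CPM and Mc1r 0.305 CPM. In the 6 Gpx5-low libraries Ccr2 reached 23.3 CPM, Tlr4 17.6 CPM, Tlr2 9.44 CPM and Mc1r 0.411 CPM, all higher. Ccr6 (0.0685 CPM) and Mc4r (0 CPM) had lower highest values there. The median of Ccr6 in the 13 libraries was 0 CPM, and Mc1r and Mc4r stayed under 1 CPM throughout. These 3 receptors rest on few reads and cannot be compared at this depth. Of the 13 list genes tested among the 13 libraries, 0 passed for fasting, diet or their interaction.

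Regulators of the epididymal epithelium were read from a list of 12 genes. Across tissues 10 were tested, 7 were higher in eWAT, Cebpb and Lgr4 were lower, and Esr1 did not pass (edgeR), where 54.9% of all genes tested were higher. Pax2 and Pax8 had no read in quadriceps and passed the filter through eWAT libraries, so this count only describes the list. Between the 13 libraries and the 6, Pax8 (109 to 281 CPM against at most 13.7 CPM) and Pax2 (51.0 to 182 CPM against at most 0.903 CPM) did not overlap. Nor did Etv4 (lowest 0.740 CPM against at most 0.488 CPM) and Elf5 (0.645 against 0.137 CPM). Over all genes at 1 CPM in an eWAT library that share was 10.8%. Foxa2 (53.9 against 0.370 CPM), Foxa1 (6.03 against 0.370 CPM) and Gata4 (20.3 against 12.7 CPM) had higher maxima in the 6, each in HFD fasted 4. Etv5 was at 9.99 CPM in CD fed 1, 4.34 CPM in HFD fasted 3 and 25.9 CPM in CD fasted 6, the 3 libraries low in Defb25 and Defb48, against 149 to 384 CPM in the other 10. Of the 10 list genes tested among the 13 libraries, 0 passed for fasting, diet or their interaction.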

How the data were processed

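Poly-A RNA was sequenced without molecular identifiers, and the authors deposited raw integer read counts per gene, 1 file for each library. The submitters' processing notes name TopHat2 2.1.0 and Bowtie2 2.2.5, with HTSeq 0.6.0, on genome build GRCm38. The sources used here do not give the annotation release, strand setting or quality threshold of the counting. Symbols, exons and coding sequences come from GENCODE M21. Summary lines for unassigned reads were left out of library sizes. CPM used plain library totals, and RPKM the union of annotated exons.

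Tests used edgeR 4.0.16 (TMM scaling, filterByExpr, robust quasi-likelihood fit, 1 mean per label group), two-sided, with Benjamini-Hochberg adjustment over all genes tested and a threshold of 0.05, in R 4.3.3. The biological coefficient of variation common to all genes was 0.651 in the 13 libraries, 0.779 in all eWAT and 0.600 over both tissues. The edgeR test returns no SE, so the SE given is the absolute log2 change divided by the square root of the test's F statistic. The models were tested on simulated data. Alternatives were RLE scaling, no low-count filter, DESeq2 1.42.0, limma voom 3.58.1, leaving out Gm42418 or libraries with hepatocyte or spermatid transcripts, an epididymal marker sum as covariate, and each library in turn; leaving out the libraries low in Lcn8 was added after seeing the data.

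Members reaching 10 CPM in an eWAT library were named individually, with ranges for the 12 highest medians. Other genes were taken from marker and pathway lists. From those lists, Adam28, Adam7, Lcn5, Etv4, Etv5, Cd52, Ltf and Prm2 were picked after their values were seen. The members, lists and tests were chosen with earlier results of these data known. The result of 1 gene of these lists and a search of promoters for motifs are not reported here.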

Additional observations from a re-analysis of the deposited data

Results flagged for a closer look

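Outlying libraries were looked for among the 12 members with the highest median, in the CD fed and HFD fasted groups of epididymal libraries, which have 4 libraries each. Of the 24 sets of values, 2 had a gap above the critical value of 0.829 of the group's range, and chance gives about 1 in 20. Defb48 was at 2.13 CPM in CD fed 1, far below the other 3 CD fed libraries. Defb21 was at 649 CPM in HFD fasted 3, far above the other 3 HFD fasted libraries.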

How the results depend on the processing

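Across 183 alternatives for counts of members, no count of members past the threshold, detected or without overlap moved by more than 1.5 times, and 0 calls were gained or lost in the contrasts of fasting, diet and their interaction. Of 126 alternatives for single members, 119 kept direction and side of the threshold. The 7 that turned direction were all for Defb42 with fasting, whose log2 change of -0.00 is near 0: it was 0.0050 with the epididymal marker sum as a covariate, and it ran from -0.13 to 0.15 when each library was left out in turn, 0.0101 without HFD fasted 5 being the smallest of the positive values. Counts of members at an unadjusted p under 0.05 did move within the 13 libraries, from 1 to as many as 4 for fasting, from 0 to 3 for diet and from 1 to 10 for the interaction, in each case without HFD fed 1. Members whose 13 and 6 libraries did not overlap numbered 26 in the reported setting, 25 on TMM-scaled library sizes, 27 without the 3 libraries low in Lcn8 and 26 to 30 when each library was left out. Over all genes, calls for fasting within the 13 libraries went from 0 in edgeR to 215 in DESeq2, 68 in limma voom and 75 with the marker sum as covariate, none a member. Where leaving out a HFD fed library left a single library in that group, it was assumed to vary like the other groups. No paired analysis was possible because replicate numbers were given in accession order and pair no libraries. HFD fed has 2 epididymal libraries, which limits every contrast, and members under 1 CPM cannot be compared at this depth.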
